A study of Mus musculus with 144 samples.

Results

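The comparison described here set the blood microRNA (miRNA) of mice given only the dispersion medium (DM) and killed at month 12 against that of DM mice killed at month 1. Arrays were chosen by their source label, which gave 16 of 144 arrays of the series, 8 at month 12 and 8 at month 1, with 1 mouse per array. All were male C57BL/J6 mice, 7 weeks old when obtained, that received by aspiration the liquid in which the particles of the other groups were suspended, and no particle. The other groups, used here only beside the DM mice, were 5 sets of mice of the same strain and sex exposed to 1, 10, 40 or 80 µg multi-walled carbon nanotubes (MWCNT) or to 120 µg crocidolite asbestos, again with 8 mice at each time. Mice of month 12 were older than mice of month 1 and had a longer time behind their aspiration. Age and time since aspiration cannot be told apart in these groups, and no mice without aspiration were analysed here.

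miRNAs are short RNAs that pair with messenger RNAs and lower their translation or stability. In whole blood they come mostly from red cells, white cells and platelets, with a smaller cell-free share, and each cell type carries its own set. In such bulk RNA a shift in the cells present and a shift in the miRNA per cell cannot be told apart. The arrays held probes spotted 3 times each, under identifiers of the array's maker. The files used here do not pair these identifiers with miRNA names or sequences, so probes are given by identifier, with the 2 largest rises and the 2 largest falls named, and the blood label could not be checked against miRNAs of blood cells.

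Of 1262 mouse probes, 742 were above the detection threshold on all 8 arrays of at least 1 of the 18 groups and were tested. The 16 arrays had between 636 and 1070 probes above threshold. The number averaged 851 ± 136 at month 12 and 874 ± 107 at month 1 (SD, n = 8 each; two-sided exact permutation test, p = 0.720). Mean log2 intensity before scaling was 7.68 ± 0.20 at month 12 and 7.65 ± 0.15 at month 1 (exact permutation test, p = 0.809). The month 12 mouse numbered 1 stood apart from its group, with a median correlation of 0.965 over probes with the other month 12 mice, against 0.982 to 0.993 for the other 7. Mouse 7 of month 12 came from a slide that was dipped again before its scan.

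Of the 742 probes, 22 were called at month 12 against month 1 (2.96% of those tested), by a p under 0.05, an adjusted p under 0.10 and a fold of 1.5 or more. Of these, 15 were higher at month 12 (2.02%) and 7 were lower (0.943%). The median difference over all 742 probes was -0.00 on the log2 scale, and 362 probes (48.8%) were higher at month 12, a balance that quantile normalization over all arrays holds near level. Rises were 1.53 to 2.26-fold, and falls were 1.52 to 5.41-fold. Under the background subtraction and scaling described in the study's methods, 34 probes were called, 27 higher and 7 lower, and 21 of the 22 probes were among them. Leaving out 1 array at a time gave 18 to 26 calls. Without month 12 mice 1 and 7 there were 15, all among the 22.

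**Figure D1:**
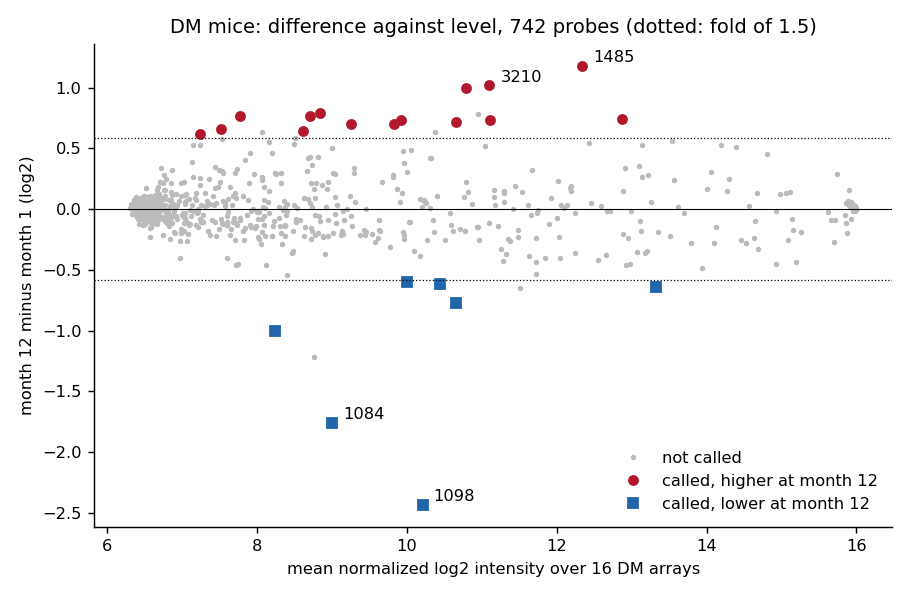
Difference between month 12 and month 1 (log2, vertical axis) against the mean normalized log2 intensity over the 16 DM arrays (horizontal axis) for the 742 tested probes, with dotted lines at a fold of 1.5. The 15 called rises and 7 called falls lie at levels from 7.24 to 13.32, and probes 1098 and 1084 lie farthest below 0.

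Probe 1098 had the largest fall. Its normalized log2 intensity in the 8 mice of month 12 was 7.92, 8.01, 8.83, 9.08, 9.37, 9.37, 9.59 and 9.77, against 10.98, 11.17, 11.27, 11.46, 11.52, 11.57, 11.59 and 11.87 in the 8 mice of month 1. Every month 12 mouse lay below every month 1 mouse, with a gap of 1.21 between the nearest mice of each group. The lowest values at month 12 belonged to mice 1 and 2, which were scanned on the same day. The groups differed by -2.44 ± 0.27 on the log2 scale (SE), a 5.41-fold fall (limma, adjusted p = 1.60e-12). The background-subtracted spot intensity had a median of 563 at month 12 and 2900 at month 1.

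Probe 1084 had the next largest fall. Its values at month 12 were 7.76, 7.85, 7.87, 7.91, 8.13, 8.28, 8.58 and 8.62, against 9.50, 9.70, 9.75, 9.84, 9.99, 10.05, 10.05 and 10.20 at month 1. The groups again did not overlap, with a gap of 0.88. The difference was -1.76 ± 0.17 (SE), a 3.39-fold fall (limma, adjusted p = 3.99e-15, and 7.82e-07 on the 16 DM arrays alone). This probe was dimmer, with a median spot intensity of 217 at month 12 and 1086 at month 1. The threshold on these 16 arrays was 17.0 to 27.2 intensity units, and the lowest intensity of probe 1084 at month 12 was 141.

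The 2 falling probes moved together within each month. Over the 8 mice of month 12 their values correlated with a Pearson r of 0.85 (exact permutation p = 0.00987, adjusted over 4 relations 0.0197) and a Spearman rho of 0.99 (exact permutation p = 9.92e-05, adjusted 0.000397). Over the 8 mice of month 1 r was 0.86 (exact permutation p = 0.0058, adjusted 0.0197) and rho 0.83 (exact permutation p = 0.0167, adjusted 0.0333). Without the 2 mice farthest from the median of probe 1098, r was 0.95 at month 12 and 0.84 at month 1. No scan day held over 3 mice of a group, too few for a value within a day. Whether the 2 probes share sequence was not tested, since their sequences were not given.

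Probe 1485 had the largest rise. Its values at month 12 were 12.26, 12.69, 12.72, 12.93, 12.96, 13.26, 13.30 and 13.30, against 11.46, 11.59, 11.63, 11.63, 11.66, 11.72, 12.14 and 12.18 at month 1. The groups did not overlap, but the lowest month 12 mouse and the highest month 1 mouse were only 0.08 apart. The difference was 1.18 ± 0.17 (SE), a 2.26-fold rise (limma, adjusted p = 7.42e-08, and 1.85e-04 on the 16 DM arrays alone). The median spot intensity was 7330 at month 12 and 3448 at month 1.

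Probe 3210 had the next largest rise. Its values at month 12 were 11.15, 11.54, 11.57, 11.59, 11.63, 11.74, 11.77 and 11.90, against 9.87, 9.92, 10.10, 10.72, 10.72, 10.91, 11.12 and 11.39 at month 1. These groups overlapped, since 1 mouse of month 1 lay above the lowest mouse of month 12. Month 1 mice were also more spread, with an SD of 0.57, against 0.22 at month 12. The difference was 1.02 ± 0.22 (SE), a 2.03-fold rise (limma, adjusted p = 7.19e-04, and 0.00761 on the 16 DM arrays alone). The 2 rising probes showed no correlation that passed a test. Between probes 1485 and 3210 r was 0.25 at month 12 (exact permutation p = 0.556, rho 0.41 with exact permutation p = 0.315) and -0.21 at month 1 (exact permutation p = 0.605, rho -0.22 with exact permutation p = 0.592).

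**Figure D2:**
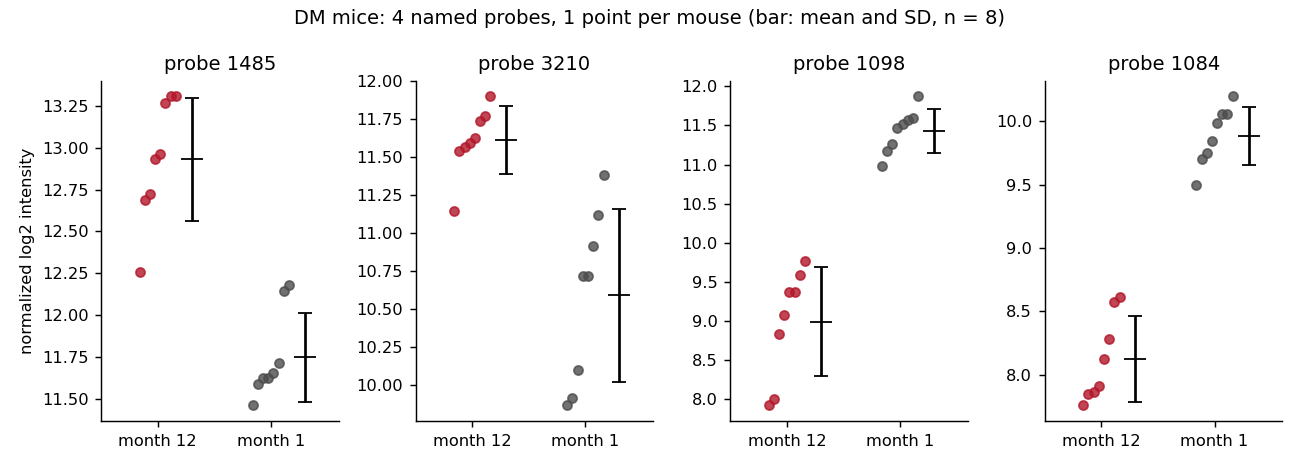
Normalized log2 intensity of the 4 named probes in the 8 DM mice of month 12 (left in each panel) and the 8 of month 1 (right), 1 point per mouse, with the mean and SD beside them. The vertical axes do not start at 0. The groups are separate for probes 1485, 1098 and 1084 and overlap for probe 3210.

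Each of the 3 spots of the named probes gave the same direction, which the choice of the probes on the mean of these spots favours. With each array's mean log2 intensity taken off in place of quantile normalization, the spots of probe 1098 differed by -2.35 to -2.58 and those of probe 1084 by -1.78 to -1.95. The spots of probe 1485 differed by 1.06 to 1.24 and those of probe 3210 by 0.83 to 0.91. On this scale the groups overlapped at spots 1 and 2 of probe 1485 and not at its spot 3. They overlapped at every spot of probe 3210 and at no spot of probes 1098 and 1084.

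The other 18 called probes had smaller differences. The 13 that rose differed by 0.62 to 1.00, with a median of 0.73. The third largest rise, 2.00-fold (adjusted p = 0.00119), had values from 10.89 to 11.84 with a median of 11.25 at month 12, against 9.45 to 10.83 with a median of 10.46 at month 1. Its groups were separated by 0.06. The 5 that fell did so by 1.52 to 2.00-fold, with a median difference of -0.64. The third largest fall, 2.00-fold (adjusted p = 0.0241), ran from 7.49 to 8.08 with a median of 7.73 at month 12, against 8.38 to 9.24 with a median of 8.66 at month 1. Its groups were separated by 0.30, the widest gap after those of probes 1098 and 1084.

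Among all 22 called probes the groups of 8 did not overlap for 8, 4 that rose and 4 that fell. Over the 742 tested probes this was so for 9 (1.21%), 5 higher (0.674%) and 4 lower (0.539%) at month 12. Each of the 8 mice of month 12 lay on the called side of the month 1 median for 20 to 22 of the 22 probes, which the choice of the probes favours.

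The 22 probes were bright enough to be measured in both groups. All 22 were above threshold on all 16 arrays, as were 575 of the 742 tested probes. None of the 22 was saturated on any, against 40 of the 742 that were. The mean levels of the 22 ran from 7.24 to 13.32, with a median of 9.96, against a median of 7.52 for all 742 tested probes. At the limit, the smallest called difference was -0.60 and the largest that passed on adjusted p but missed the fold was 0.58. In all, 46 probes had an adjusted p under 0.10 at any fold (6.2%). The 24 of these below the fold limit were 18 higher and 6 lower. A further 6 probes passed the fold limit but not the adjusted p, with differences from -1.22 to 0.78, SEs of 0.28 to 0.66 and adjusted p of 0.122 to 0.767.

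Values were next taken within scan days. Both months were scanned together on 4 days, with 2 against 2, 3 against 1, 1 against 1 and 1 against 2 mice. Of the 22 called probes, 22, 21, 21 and 22 kept their direction within these days. These are the same arrays on which the 22 were picked, so the choice favours this, and the share over all tested probes was not counted. Probe 1098 differed by -3.16, -2.07, -2.38 and -2.54 within them, and probe 1084 by -1.80, -1.72, -1.93 and -2.11. Probe 3210 differed by 0.63, 1.62, 1.76 and 0.72. Probe 1485 differed by 1.42, 1.32, 0.08 and 1.37, so that its 1 pair of mice on the third of these days was nearly level. With scan day as a fixed term 22 probes were called, 20 of them among the 22. DM arrays lay at 2 of the 4 slide positions, with 3 at A and 5 at C for month 12 and 5 at A and 3 at C for month 1. With position as a term 21 of the 22 stayed called, and with slide as a random block 18 did.

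Mice killed at month 6 placed these differences in time. The comparisons of month 6 and of month 12 with month 1 share the same 8 month 1 mice, so they are given side by side only. Probe 1098 averaged 11.43 ± 0.28 at month 1, 9.12 ± 0.69 at month 6 and 8.99 ± 0.70 at month 12 (SD, n = 8 each). Probe 1084 averaged 9.89 ± 0.23, 8.14 ± 0.58 and 8.12 ± 0.34 at the same times. For both, all 8 month 6 mice already lay below all 8 month 1 mice, and month 12 differed from month 6 by only -0.13 and -0.01. Probe 1485 averaged 11.75 ± 0.26, 12.45 ± 0.44 and 12.93 ± 0.37 at months 1, 6 and 12, and 6 of 8 month 6 mice lay above all month 1 mice. Probe 3210 averaged 10.59 ± 0.57, 11.34 ± 0.39 and 11.61 ± 0.22, with 3 of 8 month 6 mice above all month 1 mice. For the step to month 12 from month 6, probe 1485 differed by 0.47 ± 0.17 (SE, adjusted p = 0.162) and probe 3210 by 0.27 ± 0.22 (SE, adjusted p = 0.629).

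The month 6 difference of the 22 probes, as a share of their month 12 difference, ran from 30.6% to 101%, with a median of 82.3%. For 9 probes, 5 that rose and 4 that fell, it was at least 90%. Over all tested probes, 323 of 742 reached that share. That count includes probes with a month 12 difference near 0 (folds from 1.00), where the share is unstable. It is therefore no like background, and whether the share was particular to the 22 was not tested. These shares carry the error of both differences and of the shared month 1 mice, and time courses were not compared between probes by a test. In month 6 against month 1, 17 of the 22 had an adjusted p under 0.10, against a background of 100 of 742 probes (13.5%). In month 12 against month 6, 1 of the 22 did, a probe that rose, against a background of 12 of 742 probes (1.62%) at that limit. The 22 were picked on the same month 1 and month 12 mice, which favours both counts over their backgrounds.

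**Figure D3:**
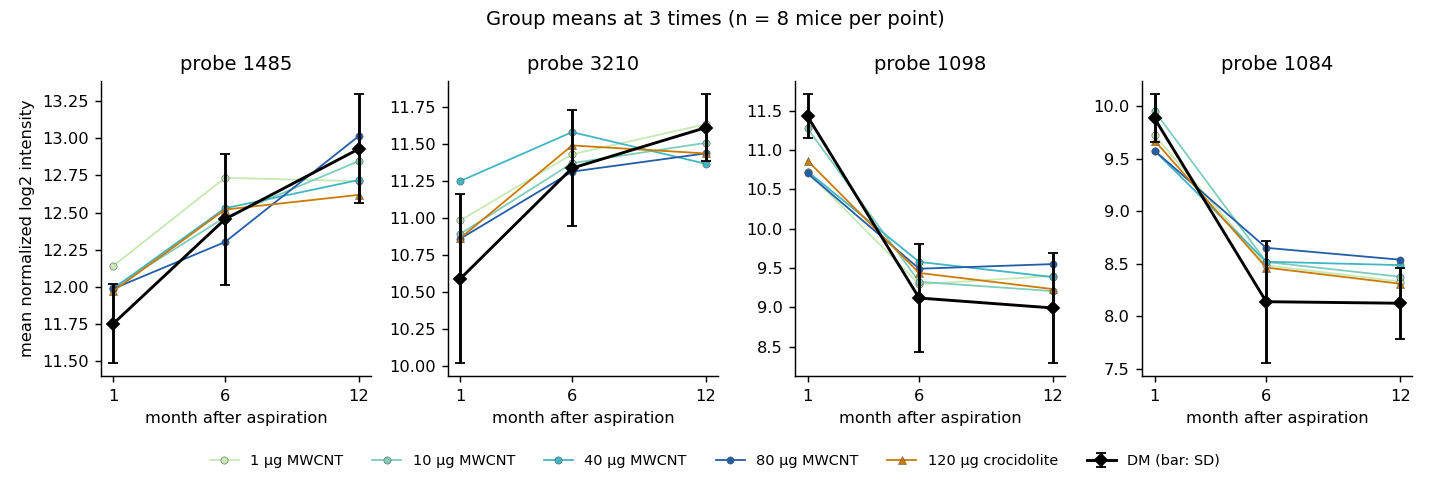
Mean normalized log2 intensity of the 4 named probes at months 1, 6 and 12 after aspiration in DM mice (black, with SD) and in the 5 exposed groups (coloured, no error bars), 8 mice per point. Probes 1098 and 1084 fall between months 1 and 6 and are then nearly level, while the DM mean of probe 1485 is 0.47 higher at month 12 than at month 6, and the vertical axes do not start at 0.

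The exposed mice, which share no animal with the DM mice, gave a test of the same probes in other mice. The mean of the 5 exposed groups at month 12 minus their mean at month 1 had an adjusted p under 0.10 for all 22, in the DM direction. At that limit 250 of 742 probes (33.7%) passed in this contrast of 40 against 40 mice. At the full limits, fold included, 6 of the 22 were called there, against 15 of 742 (2.02%). Within single exposures, 22, 22, 20, 22 and 22 of the 22 had the DM direction at 1, 10, 40 and 80 µg MWCNT and 120 µg crocidolite. The share of all 742 tested probes with the DM direction was not counted, so these counts have no background. Called in the same direction were 5, 6, 3, 6 and 7 of them, against 1.35%, 1.08%, 0.809%, 4.58% and 1.35% of all tested probes.

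Probe 1098 was lower at month 12 than in any DM mouse of month 1 in 40 of 40 exposed mice. Their values ran from 8.65 to 9.96 with a median of 9.32, against 8.70 to 12.00 with a median of 11.08 in the 40 exposed mice of month 1. The groups of 8 did not overlap at 1 and 10 µg MWCNT and with crocidolite. They overlapped at 40 and 80 µg, where month 1 mice were widely spread (SD 1.07 and 1.02) and 2 and 1 of 8 mice were as low as DM mice of month 12. The differences were -1.32, -2.07, -1.34 and -1.15 at 1, 10, 40 and 80 µg MWCNT and -1.63 with crocidolite (SE 0.27 each), with adjusted p of at most 0.00336.

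Probe 1084 was likewise below every DM mouse of month 1 in 40 of 40 exposed mice of month 12. Set against their own month 1 mice, its groups of 8 overlapped only at 40 and 80 µg (month 1 SD 0.62 and 0.57). There, 1 and 1 of 8 month 1 mice were as low as DM mice of month 12. Its differences were -1.39, -1.58, -1.09 and -1.04 at 1, 10, 40 and 80 µg MWCNT and -1.36 with crocidolite (SE 0.17 each), with adjusted p of at most 8.71e-06. Probe 1485 was above every DM mouse of month 1 in 38 of 40 exposed mice of month 12. The DM mean of month 1 (11.75) was below the exposed means of month 1 (11.97 to 12.14). Set against their own month 1 mice, its groups of 8 overlapped at every exposure. Of the exposed mice of month 1, 8 of 40 reached the lowest DM value of month 12. Its differences were 0.57 to 1.03 (SE 0.17 each), with adjusted p of at most 0.0576. Probe 3210 was less separate. Only 24 of 40 exposed mice of month 12 lay above every DM mouse of month 1, and 14 of 40 of month 1 reached the lowest DM value of month 12. Its groups of 8 overlapped at every exposure. The differences of probe 3210, 0.12 to 0.65 (SE 0.22 each), had adjusted p of 0.0739 to 0.862.

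**Figure D4:**
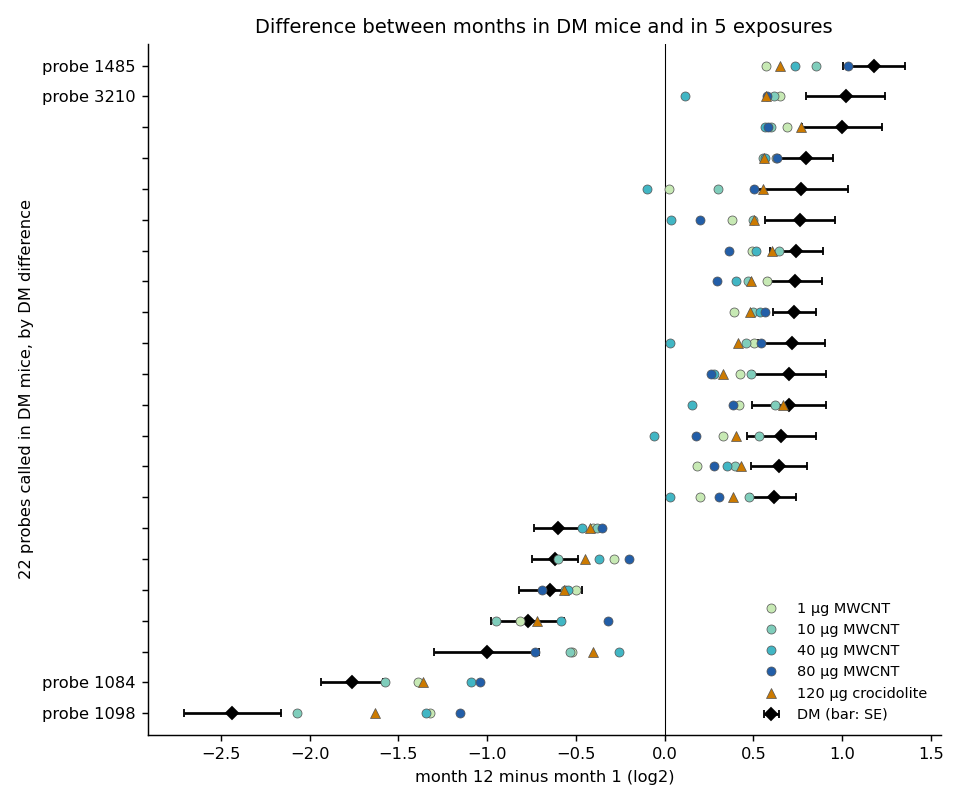
Month 12 minus month 1 (log2, horizontal axis) for the 22 probes called in DM mice, 1 line per probe ordered by the DM difference, in DM mice (black, with SE) and in the 5 exposed groups (coloured). In 22, 22, 20, 22 and 22 of 22 cases at 1, 10, 40 and 80 µg and with crocidolite the exposed difference lies on the DM side of 0. The share of all tested probes on that side was not counted.

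The size of the change was compared between DM and exposed mice by the difference between their changes. No probe passed this test at an adjusted p under 0.10 (limma, 0 of 742, with 52 or 7.01% at an unadjusted p under 0.05). The smallest adjusted p was 0.696. Of the 22 probes, 6 had an unadjusted p under 0.05. In limma, the change of probe 1098 in DM mice minus its mean change in exposed mice was -0.93 ± 0.30 (SE, adjusted p = 0.696), where exposed mice changed by -1.50. Since the 22 were picked for their size in DM mice, a larger difference there was built into the choice.

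Read the other way, the 15 probes called in the mean of the exposed groups (12 higher, 3 lower) were not all shared by DM mice. In DM mice 11 of the 15 had the same direction and 6 were called, which is 40% of the exposed list and 27.3% of the DM list, where 2.96% of all tested probes were called in DM mice and 48.8% were higher. The 3 that were lower in exposed mice had a median DM difference of -1.76, while the 12 that were higher had a median DM difference of 0.24. Their difference between DM and exposed mice was covered by the test above, which no probe passed.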

How the data were processed

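Groups were taken from the labels. The blood RNA was labelled with 1 dye on custom multi-species miRNA arrays, up to 4 per slide. Per the file headers, the deposited scanner files give linear, unnormalized intensity: a median foreground and a median local background for every spot. The deposited value table holds log2 intensity for 1262 mouse probes, which the authors made by subtracting background, scaling each array by a trimmed mean and averaging 3 spots. It was used as an alternative.

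From the scanner files, background was corrected by normexp (offset 50, limma 3.58.1, R 4.3.3). Spots marked bad were left out, 3 spots averaged on the log2 scale, and mouse probes quantile normalized over 144 arrays. All differences are on this log2 scale, and the offset shrinks those of dim probes. The threshold was the 10% trimmed mean of 21 empty spots plus 5 SD. limma fitted 18 group means on all 144 arrays, two-sided, with Benjamini-Hochberg adjustment over 742 probes. Calls took the limits of the study's methods. The number of arrays limits the precision, with a median SE per difference of 0.11 over the 742 probes and 0.18 over the 22 called. Single array measures were compared by exact permutation (scipy 1.17.1). The fit was tested on simulated data. Named probes were the 2 called probes with the largest rise and the 2 with the largest fall. Lists of blood miRNAs and families could not be looked up without probe names. 1 scan file at another detector setting was not used. The members, lists, limits and tests were chosen with earlier results of these data known. Alternatives covered background, scaling, the deposited table, filters, array batches, tests, limits and left-out arrays.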

Additional observations from a re-analysis of the deposited data

Results flagged for a closer look

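In groups of 8, the most extreme mouse was set against the range of its group for 20 sets of values, and 4 passed Dixon's limit at the 95% level, all at month 12. Chance passes about 1 set in 20 where sets are independent. These were not, since the same mice recur in them, so the count of 4 cannot be set against that rate. Probe 3210 had 1 low mouse at month 12 (11.15, the next 11.54), a gap of 0.5261 of the range, just past the limit. Mean log2 intensity before scaling, after normexp, was high in month 12 mouse 2 (8.13, the next 7.79), a gap of 0.558 of the range. By another measure this mouse was not bright. Its median background-subtracted log2 intensity, over probes above threshold on all arrays, was 9.20, inside its group's range of 8.74 to 9.73. Month 12 mouse 1 was the lowest in its correlation with the mean array (0.980, the next 0.992), a gap of 0.670 of the range. It was also the lowest in its median correlation with its own group (0.965, the next 0.982), a gap of 0.621 of the range. Without this mouse 23 probes were called, 20 of them among the 22.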

How the results depend on the processing

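No paired analysis was possible because the labels give no replicate numbers and the mice of the 2 months are different animals. The 22 calls became 34 (27 higher, 79.4%, against 68.2% in the main setting) under the subtraction and trimmed-mean scaling that the study's methods describe, and numbered 46 when no fold was required. The calls over the 5 exposed groups, 15 in the main setting, became 250 with no limit on the fold. Trimmed-mean scaling alone, with normexp kept, gave 27 calls (21 higher, 6 lower). Subtraction was not run without that scaling, and the cause of the higher count was not tested. The deposited table gave 31 calls, 20 of them among the 22. 3 alternatives were chosen after seeing the data: leaving out month 12 mice 1 and 7 gave 15 calls (9 higher, 6 lower), the 16 arrays alone with scan day gave 28, and the study's subtraction, scaling and unmoderated test together gave 31. The other alternatives to the 22 gave counts within 1.5 times of it, and the test of DM against exposed change gave 0 calls under each of its alternatives. Leaving out 1 array gave 18 (without month 12 mouse 2) to 26 calls (without month 1 mouse 3). It gave a brightness difference of -0.04 to 0.05 and a difference in probes above threshold of -53.9 to 8.09, neither past its test. The 4 named probes kept their direction and call under every alternative run, with adjusted p of at most 0.0299 for probe 3210.

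The limits are these. Probe names were not given, dim probes have shrunken folds, and 8 mice per group can miss small differences. Nothing in the labels says whether RNA of the months was extracted together. Handling at each time cannot be told apart from time.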
